A study of Mus musculus with 4 samples.

Results

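The later state of activated CD4+ T cells after 8 h of interferon alpha (IFNa) was described across genes by setting 1 array of treated cells against 2 arrays of baseline cells. These are 3 of the 4 arrays of the series, chosen by their labels alone. Each array held RNA of splenic CD4+ T cells from male C57BL/6 mice aged 6 weeks. The cells of every group had been isolated by negative selection and activated for 48 h with beads carrying antibodies to CD3 and CD28. The baseline cells had no IFNa, and the treated cells were cultured with 100 U/ml IFNa. The remaining array, from cells after 2 h of IFNa, is given beside the others as an earlier time. The labels do not say how many mice or cultures stand behind an array, so p-values measure only the spread between the 2 baseline arrays, which may be technical. The 8 h array had no replicate and was taken to vary as a baseline array does. No untreated array of the same culture time was analysed here, so IFNa and 8 h of further culture cannot be told apart. A note on how the treated samples were prepared speaks of cultures with and without inhibitors of Janus kinases, and it does not say which applied to these arrays.

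IFNa binds a receptor of the chains Ifnar1 and Ifnar2, whose Janus kinases Jak1 and Tyk2 activate transcription factors that include Stat2. With Irf9, Stat2 binds the interferon-stimulated response element (ISRE) in the promoters of genes against viruses. After activation, T cells make their growth cytokine interleukin 2, build lipid, ribosomes and glycolytic enzymes, and divide. Lists of genes for both programmes were read on each array.

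Of 10699 genes tested, 70 rose at 8 h, which is 0.654%, and 358 fell, which is 3.35% (limma, adjusted p under 0.05). Each of these 428 genes lay outside both baseline arrays on the 8 h array. The call requires this, because the gap between the baseline arrays enters its standard error, so it is no further check. The rises were steep and were led by interferon-induced antiviral genes, with a median log2 difference of 1.53 and a largest of 4.24. The falls were shallower, with a median of −1.10 and a largest of −2.74, and were led by genes of lipid synthesis, low-oxygen adaptation and interleukin 2 signalling. At least 2-fold differences that also lay outside both baseline arrays numbered 61 upward (0.57% of tested genes) and 278 downward (2.6%). Both counts were the same when a place outside the baseline arrays was not required. The downward count was 457 without baseline replicate 1. Over all tested genes 24.4% lay above both baseline arrays, 55.9% below both and 19.7% between them, so a position outside the baseline pair is common and is read only beside these shares.

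**Figure D1:**
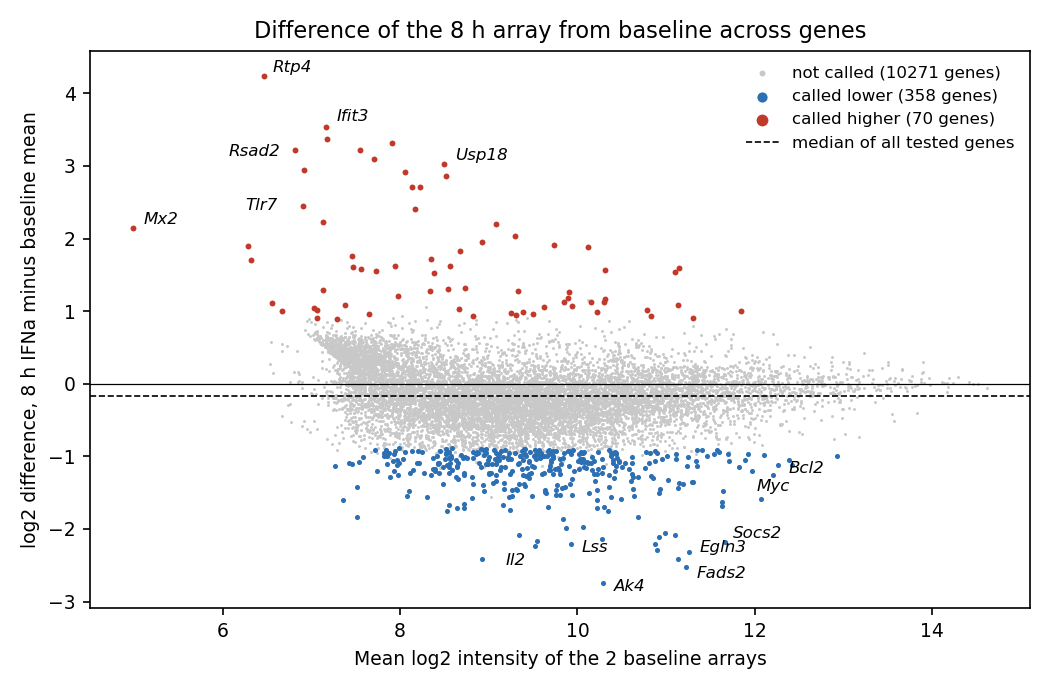
Each point is a tested gene, with the mean log2 intensity of the 2 baseline arrays on the x axis and the log2 difference of the 8 h array from that mean on the y axis. The 70 genes called higher reach 4.24 and the 358 called lower reach −2.74, while the dashed median of all genes lies at −0.16.

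The spread of intensities was narrower at 8 h. The 75th percentile was 574 on that array against 669 and 730 at baseline, and the 25th percentile was 87.8 against 81.8 and 70.1. Over the tested genes the median difference was −0.16, or −0.10 against baseline array 1 and −0.23 against baseline array 2. It became 0.00 after quantile normalization and −0.24 when each array was centred on its own median. Under these scalings the calls were 665 higher and 901 lower, and 70 higher and 724 lower. Upward calls thus made up 16.4% of all calls on the deposited values, 42.5% after quantile normalization and 8.82% after centring. With quantile normalization and the spread of the deposited values, a choice made after seeing the data, 105 genes were higher and 258 lower, among them 69 of the 70 and 206 of the 358. The share of these calls that comes from the array's narrower range was not tested. The median of every gene list below is therefore to be read against −0.16. Counts of calls in a list are to be read beside the 0.654% higher and 3.35% lower of all tested genes.

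The labelled cell type was checked against marker genes. All 9 measured T cell markers, among them Cd3e and Cd4, lay above the array median on every array, and their summed intensity was 37850 and 42851 at baseline and 45647 at 8 h. Cd8b1, a CD8 chain, was also above the median on each array, and the 2 CD8 genes summed to 1112 and 1001 at baseline and 1191 at 8 h. Of 7 measured B cell markers 5 lay above the median on every array, with sums of 2715 and 2698 at baseline and 3312 at 8 h. Ms4a1, a B cell surface protein, stood at intensities of 576 and 488 at baseline and 895 at 8 h. Markers of macrophages and monocytes summed to 1265 and 1085 at baseline and 1094 at 8 h, those of dendritic cells to 1105 and 1018 against 1138, and those of NK cells to 379 and 302 against 341. Neutrophil and erythroid markers summed to 757 and 724 against 953, and platelet markers to 859 and 785 against 909. Of 8 macrophage and monocyte markers 2, Lyz2 and Cd68, lay above the median on every array. So did 1 of 8 dendritic cell markers, Ccr9, and 3 of 4 platelet markers. The NK marker Klrd1 lay just above the median on baseline array 1 alone, at an intensity of 196 against 195. The remaining members of the NK, macrophage and dendritic lists, among them Ncr1, Klrb1c, Csf1r, Itgam, Adgre1, Cd14, Itgax and Clec9a, were below the array median throughout. No marker was called by limma. At an unadjusted p under 0.05, 2 of the tested markers were higher, 1 of B cells and 1 of neutrophils and erythroid cells, and none was lower. Of all tested genes 5.63% were higher and 19% lower at that unadjusted p, the background for each such count below. The part of other cells in the results was not tested. In such bulk samples a change in the number of cells of a type and a change in RNA per cell cannot be told apart.

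The promoters of the genes that rose were searched for the ISRE core. RefSeq promoter windows, from 250 bases before to 50 after a gene's start, were matched for 8590 of the tested genes and read on both strands for the letters GAAA, NN and GAAA in a row, in which N is any base. The motif can overlap itself, and a gene with several starts counted when any window held it. It was present in 21 of 53 matched genes that rose (39.6%), in 11 of 289 that fell (3.81%) and in 311 of all 8590 (3.62%). Over all 10847 windows the share was 3%. The windows of the 3 most raised genes that held it are printed here, on GRCm38.p6, with the motif in capitals. Ifit3 lies at chr19:34583279-34583578 on the plus strand, Ifi208 at chr1:173673415-173673714 on the plus strand and Ifi214 at chr1:173535908-173536207 on the minus strand. The first base of the motif stood 156 and 122 bases before the start in Ifit3, 58 before it in Ifi208 and 79 before it in Ifi214.
Ifit3: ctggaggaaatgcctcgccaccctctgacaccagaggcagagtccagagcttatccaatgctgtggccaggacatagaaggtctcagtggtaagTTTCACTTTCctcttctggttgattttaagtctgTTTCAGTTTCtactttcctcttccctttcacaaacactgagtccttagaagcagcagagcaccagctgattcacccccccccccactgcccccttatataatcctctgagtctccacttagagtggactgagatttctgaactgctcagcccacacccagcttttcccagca
Ifi208: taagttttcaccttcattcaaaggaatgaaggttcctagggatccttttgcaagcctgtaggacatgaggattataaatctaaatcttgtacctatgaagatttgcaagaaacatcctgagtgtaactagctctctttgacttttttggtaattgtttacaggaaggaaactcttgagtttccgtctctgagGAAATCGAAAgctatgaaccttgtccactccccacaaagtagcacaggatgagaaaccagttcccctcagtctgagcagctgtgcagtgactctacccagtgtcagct
Ifi214: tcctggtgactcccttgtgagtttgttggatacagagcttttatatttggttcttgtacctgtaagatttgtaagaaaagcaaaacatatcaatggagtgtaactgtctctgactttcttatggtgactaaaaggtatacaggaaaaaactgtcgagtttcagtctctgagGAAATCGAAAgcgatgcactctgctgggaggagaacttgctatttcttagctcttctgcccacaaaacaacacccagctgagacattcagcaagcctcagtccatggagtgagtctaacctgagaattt
A match is a description of these letters and not a bound site.

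The antiviral effectors that act on RNA held the most rises of the 38 lists. Of 20 tested, 14 rose and none fell, all 20 lay above both baseline arrays, and the median difference was 1.61 (all tested genes −0.16). Ifit3, a partner of the RNA-binding protein Ifit1, stood at 7.32 and 7.02 on the baseline arrays, 10.44 after 2 h and 10.70 after 8 h on the log2 intensity scale. It rose by a log2 difference of 3.53 (SE 0.22, adjusted p = 0.00033), which is 11.6-fold. Its relative Ifit1 stood at 8.14 and 7.97 on the baseline arrays, 11.06 after 2 h and 10.97 after 8 h and rose by 2.92 (SE 0.21, adjusted p = 0.000494). For both genes the 8 h array stood near the 2 h array and well clear of the baseline pair. Rsad2, which makes a chain-terminating nucleotide, stood at 6.92 and 6.72 on the baseline arrays, 9.997 after 2 h and 10.04 after 8 h and rose by 3.22 (SE 0.21, adjusted p = 0.000371). The oligoadenylate synthetases make a messenger that switches on an RNA-cutting enzyme. Of these Oasl2 stood at 7.04 and 6.80 on the baseline arrays, 10.001 after 2 h and 9.87 after 8 h (difference 2.95, SE 0.21, adjusted p = 0.000494). Oas3 stood at 7.96 and 8.39 on the baseline arrays, 10.27 after 2 h and 10.59 after 8 h (difference 2.41, SE 0.24, adjusted p = 0.00217). Oas2 stood at 7.35 and 6.91 on the baseline arrays, 8.70 after 2 h and 9.36 after 8 h (difference 2.23, SE 0.24, adjusted p = 0.00321). All 3 passed, and their 8 h values lay clear of both baseline arrays. Mx2, an antiviral dynamin-like GTPase, stood at 5.02 and 4.96 on the baseline arrays, 7.94 after 2 h and 7.13 after 8 h and rose by 2.14 (SE 0.20, adjusted p = 0.00166). Ifit3, Rsad2, Oasl2, Oas2 and Mx2 lay under the array median on both baseline arrays, so their folds rest on dim starting levels.

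Rtp4, an interferon-induced transmembrane protein that restricts viruses, showed the largest difference of any tested gene. It stood at 6.59 and 6.34 on the baseline arrays, 10.61 after 2 h and 10.70 after 8 h and rose by 4.24 (SE 0.21, adjusted p = 0.000232), which is 18.9-fold, from a dim baseline. Ms4a4c, a tetraspanning surface protein, stood at 10.28 and 10.34 on the baseline arrays, 10.66 after 2 h and 11.47 after 8 h and rose by 1.17 (SE 0.20, adjusted p = 0.0232). These were the 2 that rose among 14 tested membrane restriction factors and surface proteins, whose median was 0.62. After quantile normalization 8 of the 14 were called higher. Ubiquitin-like modification by ISG15 is a further arm of the response. Of 5 tested genes of this system 3 rose, with a median of 1.18. Usp18, which removes ISG15 and restrains the interferon receptor, stood at 8.36 and 8.64 on the baseline arrays, 11.72 after 2 h and 11.52 after 8 h and rose by 3.02 (SE 0.22, adjusted p = 0.000494). The ligase Herc6 stood at 8.94 and 8.91 on the baseline arrays, 9.80 after 2 h and 10.88 after 8 h and rose by 1.95 (SE 0.20, adjusted p = 0.00258). At 8 h Herc6 also exceeded the 2 h array, by 1.07 (adjusted p = 0.0285). The ligase Trim25 stood at 9.88 and 9.92 on the baseline arrays, 11.42 after 2 h and 11.08 after 8 h and rose by 1.18 (SE 0.20, adjusted p = 0.0227).

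Among nucleic acid sensors 5 of 15 rose and none fell, with a median of 0.60. Dhx58, a helicase of the RIG-I family, stood at 8.04 and 8.24 on the baseline arrays, 10.55 after 2 h and 10.85 after 8 h and rose by 2.71 (SE 0.21, adjusted p = 0.00061). Tlr7, the endosomal receptor for single-stranded RNA, stood at 7.17 and 6.65 on the baseline arrays, 8.67 after 2 h and 9.36 after 8 h and rose by 2.45 (SE 0.25, adjusted p = 0.00258). Its baseline arrays differed from each other by more than those of Dhx58, and the 8 h array was above both. Ddx60 stood at 6.33 and 6.23 on the baseline arrays, 8.24 after 2 h and 8.18 after 8 h (difference 1.90, SE 0.20, adjusted p = 0.00321). The double-stranded RNA sensor Ifih1 stood at 7.83 and 8.05 on the baseline arrays, 10.37 after 2 h and 9.57 after 8 h (difference 1.62, SE 0.21, adjusted p = 0.00797). Ddx58, which encodes RIG-I, stood at 10.31 and 10.29 on the baseline arrays, 11.63 after 2 h and 11.42 after 8 h (difference 1.12, SE 0.20, adjusted p = 0.0258).

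Genes of the Ifi200 family, which encode DNA-binding PYHIN proteins, had the highest median of the 38 lists, at 2.49, with 5 of 6 tested members called higher. Ifi208 stood at 7.11 and 7.24 on the baseline arrays, 10.07 after 2 h and 10.54 after 8 h and rose by 3.37 (SE 0.20, adjusted p = 0.00033). Ifi214 stood at 7.97 and 7.84 on the baseline arrays, 10.12 after 2 h and 11.22 after 8 h and rose by 3.32 (SE 0.20, adjusted p = 0.00033). Ifi213 stood at 7.84 and 7.58 on the baseline arrays, 9.99 after 2 h and 10.80 after 8 h and rose by 3.09 (SE 0.22, adjusted p = 0.000494). On all 3 the 8 h value lay above both baseline values. Ifi209 stood at 10.14 and 10.10 on the baseline arrays, 10.94 after 2 h and 12.00 after 8 h (difference 1.88, SE 0.20, adjusted p = 0.00321). Ifi203 stood at 11.36 and 10.92 on the baseline arrays, 11.83 after 2 h and 12.74 after 8 h (difference 1.60, SE 0.24, adjusted p = 0.0136). Against the 2 h array, Ifi214 was higher by 1.10 (adjusted p = 0.0281) and Ifi209 by 1.07 (adjusted p = 0.0291), while Ifi208 differed by 0.47 (adjusted p = 0.183), Ifi213 by 0.81 (adjusted p = 0.0633) and Ifi203 by 0.91 (adjusted p = 0.0609). In the whole contrast of 8 h against 2 h, 1.46% of genes were called higher and 10.8% lower (limma, 1 array against 1). The 5 genes lie side by side among tested genes in the RefSeq order. The other run of that length was Trim34a, Trim12a, Trim12c, Trim30a and Trim30d. In all, 24 of the 70 raised genes stood next to another raised gene among tested genes, in 9 runs, against 40 of the 358 lowered genes in 19 runs. Near-identical members of these clusters may share probes, so the division of signal among them is uncertain.

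In the TRIM and PML nuclear body list 7 of 13 rose and none fell, with a median of 0.93. Trim30d, a ubiquitin ligase of the tripartite motif family, stood at 9.18 and 8.98 on the baseline arrays, 10.89 after 2 h and 11.28 after 8 h and rose by 2.20 (SE 0.21, adjusted p = 0.00167). Trim30a stood at 11.14 and 11.06 on the baseline arrays, 12.58 after 2 h and 12.63 after 8 h (difference 1.53, SE 0.20, adjusted p = 0.00824). Among 6 Schlafen genes, some of which restrain T cell growth, Slfn8 (difference 1.83, SE 0.20, adjusted p = 0.00339), Slfn5 (1.29, SE 0.21, adjusted p = 0.0194) and Slfn1 (1.09, SE 0.22, adjusted p = 0.0357) rose, and the median was 0.82. Slfn5 stood at 7.03 and 7.23 on the baseline arrays, 9.48 after 2 h and 8.42 after 8 h, and was lower at 8 h than at 2 h (difference −1.06, adjusted p = 0.0329). Of 8 ADP-ribosyltransferases and partners 3 rose, with a median of 0.57, namely Parp12 (1.58, SE 0.20, adjusted p = 0.00706), Parp14 (1.26, SE 0.21, adjusted p = 0.0195) and Parp9 (0.98, SE 0.21, adjusted p = 0.0452). Parp12 stood at 7.55 and 7.57 on the baseline arrays, 10.27 after 2 h and 9.14 after 8 h, again lower at 8 h than at 2 h (difference −1.13, adjusted p = 0.0246) but above both baseline arrays.

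The guanylate-binding proteins (GBPs) and the immunity-related GTPases attack the vacuoles of intracellular microbes. Of 18 listed, 9 had a row naming them alone, and Gbp2, Igtp and Irgm2 were among those without one. Those measured were not called at 8 h. Of 9 tested none passed (limma), with 3 higher and 1 lower at an unadjusted p under 0.05, against 5.63% and 19% of all genes, and the median was 0.10. After quantile normalization 3 of the 9 were called higher, and 1 with the spread of the deposited values. Gbp9 stood at 9.61 and 9.74 on the baseline arrays, 10.49 after 2 h and 10.54 after 8 h (difference 0.86, SE 0.20, adjusted p = 0.056). Irgm1 stood at 10.41 and 10.63 on the baseline arrays, 12.14 after 2 h and 11.31 after 8 h (difference 0.79, SE 0.21, adjusted p = 0.0761). Against the 2 h array 4 of the 9 were called lower, against 10.8% of all genes, and the median was −0.83, against −0.25 over all genes. In MHC class I presentation 1 of 17 rose, H2-T24, a nonclassical class I gene, which stood at 9.23 and 9.37 on the baseline arrays, 10.78 after 2 h and 11.33 after 8 h and rose by 2.03 (SE 0.21, adjusted p = 0.00239). The median of that list was 0.10, or 0.22 against baseline array 1 and 0.02 against baseline array 2. Of its 29 listed genes 19 had a row naming them alone. The class I genes H2-K1, H2-D1 and H2-L had none and were not read.

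**Figure D2:**
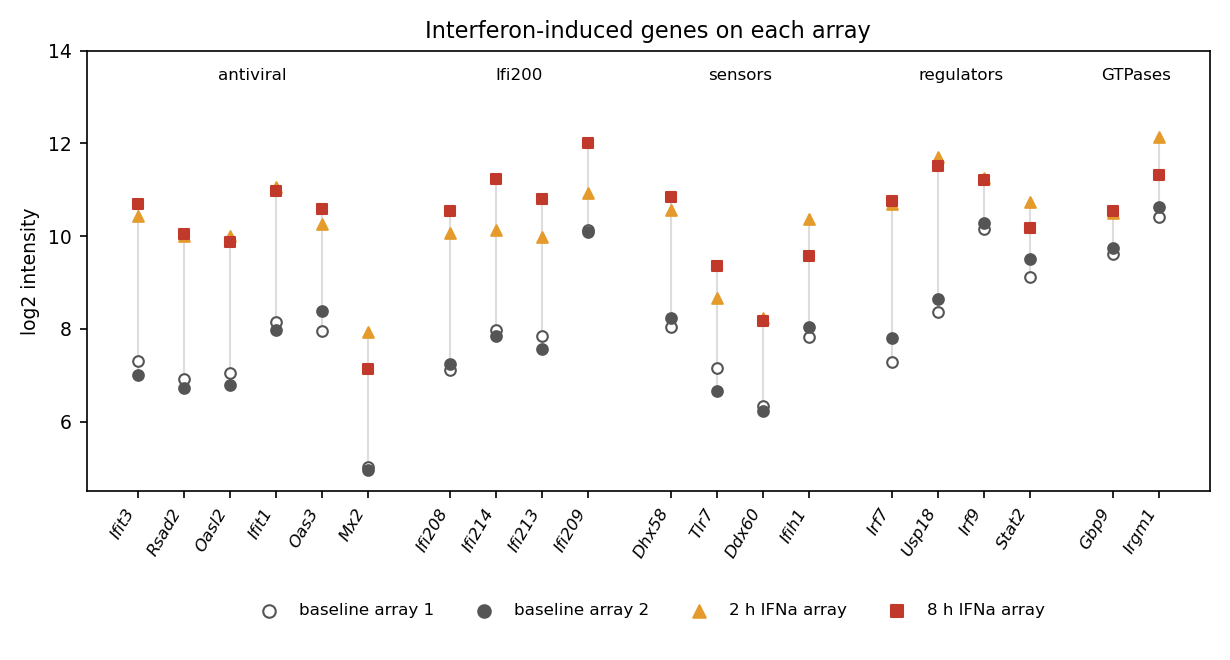
The log2 intensity of interferon-induced genes is shown on each array, with circles for the 2 baseline arrays, triangles for 2 h and squares for 8 h. The 8 h squares stand above both circles for all 20 genes, and for the GTPase Irgm1 the 2 h value of 12.14 exceeds that of 8 h, 11.31.

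Of the receptor and its transducers 1 of 12 rose and 1 fell, and the list's median of 0.03 turned to −0.05 with centred arrays. Irf9 stood at 10.16 and 10.29 on the baseline arrays, 11.26 after 2 h and 11.22 after 8 h and rose by 0.99 (SE 0.20, adjusted p = 0.0388). Its partner Stat2 stood at 9.12 and 9.50 on the baseline arrays, 10.73 after 2 h and 10.19 after 8 h and did not pass (difference 0.88, SE 0.23, adjusted p = 0.0725). The receptor chains Ifnar1 (0.24, SE 0.22, adjusted p = 0.524) and Ifnar2 (0.11, SE 0.20, adjusted p = 0.779) and the kinases Jak1 (0.14, SE 0.21, adjusted p = 0.698) and Tyk2 (−0.04, SE 0.21, adjusted p = 0.927) did not pass. Socs1, an inhibitor of these kinases, fell. It stood at 10.22 and 10.59 on the baseline arrays, 10.67 after 2 h and 9.35 after 8 h (difference −1.05, SE 0.23, adjusted p = 0.0452). Interferon regulatory factors split, with 1 of 7 called higher and 2 lower. Irf7, which amplifies interferon responses, stood at 7.28 and 7.80 on the baseline arrays, 10.69 after 2 h and 10.77 after 8 h and rose by 3.23 (SE 0.25, adjusted p = 0.000629). Irf8 stood at 11.74 and 11.53 on the baseline arrays, 11.40 after 2 h and 9.95 after 8 h and fell by 1.69 (SE 0.21, adjusted p = 0.00661) on the log2 scale. Irf4, induced by antigen receptor signalling, stood at 10.69 and 11.15 on the baseline arrays, 11.10 after 2 h and 9.41 after 8 h and fell by 1.51 (SE 0.24, adjusted p = 0.0187). Irf1 lay under both baseline arrays without passing (difference −0.53, SE 0.21, adjusted p = 0.174). For Irf8 and Irf4 the 2 h array lay near or within the baseline levels and the 8 h array alone was low.

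Xaf1, an interferon-induced antagonist of inhibitors of apoptosis, was the 1 gene of 13 caspase and death genes that was called. It stood at 8.22 and 8.22 on the baseline arrays, 10.74 after 2 h and 10.93 after 8 h and rose by 2.71 (SE 0.20, adjusted p = 0.000494). Phf11c, a PHD finger gene on none of the lists, stood at 8.41 and 8.63 on the baseline arrays, 10.82 after 2 h and 11.37 after 8 h (difference 2.86, SE 0.21, adjusted p = 0.000494). Among chemokines and their receptors 2 of 11 rose and 2 fell. Ccl5 stood at 9.26 and 9.51 on the baseline arrays, 9.98 after 2 h and 10.37 after 8 h (difference 0.99, SE 0.21, adjusted p = 0.0451). Cxcl10 stood at 6.78 and 6.56 on the baseline arrays, 8.54 after 2 h and 7.68 after 8 h (difference 1.01, SE 0.21, adjusted p = 0.0411). The receptor Ccr8 stood at 10.18 and 10.26 on the baseline arrays, 11.57 after 2 h and 8.75 after 8 h and fell by 1.46 (SE 0.20, adjusted p = 0.00983), while Ccl17 stood at 8.71 and 8.39 on the baseline arrays, 8.01 after 2 h and 7.40 after 8 h and fell by 1.15 (SE 0.22, adjusted p = 0.0321).

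Sterol synthesis enzymes had the lowest median of the 38 lists, −1.09 against −0.16 for all genes. Of 17 tested 9 fell and none rose, 16 lay below both baseline arrays, and 10 were at least 2-fold lower (12 without baseline replicate 1 and 9 without baseline replicate 2). The steps run from Hmgcs1 at the entry of the mevalonate pathway to the closure of the sterol rings by Lss and the later demethylation by Cyp51 and Msmo1. Hmgcs1 stood at 10.72 and 11.12 on the baseline arrays, 10.74 after 2 h and 8.82 after 8 h and fell by 2.10 (SE 0.23, adjusted p = 0.0037) on the log2 scale. Idi1, which isomerises the isoprenoid unit, stood at 10.98 and 10.83 on the baseline arrays, 10.90 after 2 h and 8.62 after 8 h and fell by 2.28 (SE 0.21, adjusted p = 0.00139). Lss stood at 9.50 and 10.36 on the baseline arrays, 9.93 after 2 h and 7.72 after 8 h, with a gap between the baseline arrays, and fell by 2.21 (SE 0.33, adjusted p = 0.0133). Each of these 3 lost over 2 units of log2 intensity. Cyp51 stood at 10.32 and 10.23 on the baseline arrays, 10.48 after 2 h and 8.14 after 8 h and fell by 2.14 (SE 0.20, adjusted p = 0.00166). Msmo1 stood at 10.78 and 10.97 on the baseline arrays, 10.45 after 2 h and 8.67 after 8 h and fell by 2.20 (SE 0.21, adjusted p = 0.00166). On these 5 genes the 2 h array lay much closer to the baseline arrays than the 8 h array did. Among sterol uptake, sensing and efflux genes 2 of 11 fell, with a median of 0.00. Insig1, a brake on the sterol regulatory factors (SREBPs), stood at 10.47 and 10.89 on the baseline arrays, 10.54 after 2 h and 8.84 after 8 h and fell by 1.84 (SE 0.24, adjusted p = 0.00754). The other was the sterol carrier Stard4 (difference −1.28, SE 0.23, adjusted p = 0.0275). Srebf2, which encodes the main sterol SREBP, did not pass (difference −0.65, SE 0.22, adjusted p = 0.133), nor did Srebf1 (difference −0.30, SE 0.25, adjusted p = 0.48).

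In fatty acid synthesis and desaturation 5 of 13 fell and none rose, with a median of −0.74. The desaturase Fads2 stood at 11.25 and 11.19 on the baseline arrays, 10.90 after 2 h and 8.70 after 8 h and fell by 2.53 (SE 0.20, adjusted p = 0.000675), a 5.76-fold difference. The desaturase Scd1 stood at 11.25 and 11.03 on the baseline arrays, 10.58 after 2 h and 8.72 after 8 h and fell by 2.42 (SE 0.21, adjusted p = 0.0013). Acaca, which makes malonyl-CoA, stood at 10.27 and 10.43 on the baseline arrays, 10.19 after 2 h and 8.60 after 8 h and fell by 1.75 (SE 0.21, adjusted p = 0.00508). Fads1 (difference −0.999, SE 0.20, adjusted p = 0.0383) and the synthase Fasn (−0.99, SE 0.22, adjusted p = 0.0475) fell by less. For each of these 5 genes the 2 h array was already under both baseline arrays. The 2 h differences were small, from −0.16 for Acaca to −0.59 for Fads1, and were not called by limma.

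The promoter of Hmgcs1, printed as the most lowered gene whose window held a sterol response element, lies at chr13:119690101-119690400 on the plus strand (GRCm38.p6). The motif searched was TCACNCCAC on both strands, and capitals mark it 137 bases before the start.
Hmgcs1: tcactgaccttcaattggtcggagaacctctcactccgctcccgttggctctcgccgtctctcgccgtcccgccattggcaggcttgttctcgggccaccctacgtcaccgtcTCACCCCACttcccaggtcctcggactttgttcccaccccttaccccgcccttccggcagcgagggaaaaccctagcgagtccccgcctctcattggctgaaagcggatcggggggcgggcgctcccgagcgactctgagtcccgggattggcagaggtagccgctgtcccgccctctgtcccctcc
This sequence was rare. It was found in 1 of 14 matched sterol synthesis genes, in 7 of 289 genes that fell (2.42%), in none of 53 that rose and in 122 of all 8590 (1.42%), or 1.19% of all windows.

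Of 23 tested genes that are induced in low oxygen, apart from glycolytic enzymes, 10 fell and none rose, with a median of −0.67 (−0.50 against baseline array 1 and −0.84 against baseline array 2). Ak4, a mitochondrial adenylate kinase, had the largest fall of all genes. It stood at 10.23 and 10.36 on the baseline arrays, 9.53 after 2 h and 7.56 after 8 h and fell by 2.74 (SE 0.20, adjusted p = 0.000494), a 6.67-fold difference. Egln3, a prolyl hydroxylase that marks the oxygen-regulated factor HIF for destruction, stood at 11.35 and 11.17 on the baseline arrays, 10.98 after 2 h and 8.94 after 8 h and fell by 2.32 (SE 0.21, adjusted p = 0.00139). The mitophagy receptor Bnip3 stood at 11.23 and 10.76 on the baseline arrays, 10.16 after 2 h and 8.94 after 8 h and fell by 2.06 (SE 0.24, adjusted p = 0.00508). Ero1a, an oxidase of the endoplasmic reticulum, stood at 10.77 and 11.10 on the baseline arrays, 10.82 after 2 h and 9.49 after 8 h (difference −1.45, SE 0.22, adjusted p = 0.016). Higd1a, a mitochondrial protein, stood at 7.53 and 7.51 on the baseline arrays, 7.47 after 2 h and 6.10 after 8 h (difference −1.42, SE 0.20, adjusted p = 0.0111). Hif1a, the oxygen-regulated subunit of HIF, did not pass (difference −0.23, SE 0.20, adjusted p = 0.501). Among glycolytic enzymes and transporters 4 of 16 fell and none rose, with a median of −0.92. The gap between the baseline arrays was wide for this list, at a median of 0.48, so its median was −0.60 against baseline array 1 and −1.12 against baseline array 2. Hexokinase Hk2 stood at 8.47 and 8.96 on the baseline arrays, 8.41 after 2 h and 7.05 after 8 h and fell by 1.66 (SE 0.25, adjusted p = 0.0136). The lactate transporter Slc16a1 stood at 9.82 and 10.06 on the baseline arrays, 10.30 after 2 h and 8.40 after 8 h and fell by 1.54 (SE 0.21, adjusted p = 0.00983). Phosphofructokinase Pfkl (difference −1.50, SE 0.28, adjusted p = 0.0289) and Tpi1 (−0.99, SE 0.21, adjusted p = 0.0449) also fell. At least 2-fold falls in this list numbered 5, or 10 without baseline replicate 1 and 4 without baseline replicate 2.

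The hypoxia response core ACGTG, searched on both strands, is short and was present in the windows of 29.7% of all matched genes and in 25.8% of all windows. It overlaps itself in CACGTG. It stood in 16 of 21 matched hypoxia-inducible genes, in 12 of 15 glycolytic genes, in 99 of 289 genes that fell (34.3%) and in 6 of 53 that rose (11.3%). The window of Ak4, the most lowered gene, is at chr4:101419453-101419752 on the plus strand of GRCm38.p6, with the overlapping pair in capitals 214 bases before the start.
Ak4: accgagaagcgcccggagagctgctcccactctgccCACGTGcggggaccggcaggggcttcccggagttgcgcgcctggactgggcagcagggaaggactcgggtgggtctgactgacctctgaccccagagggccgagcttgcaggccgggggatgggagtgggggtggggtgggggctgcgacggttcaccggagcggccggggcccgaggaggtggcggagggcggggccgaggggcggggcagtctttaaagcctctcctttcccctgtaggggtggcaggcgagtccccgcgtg

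**Figure D3:**
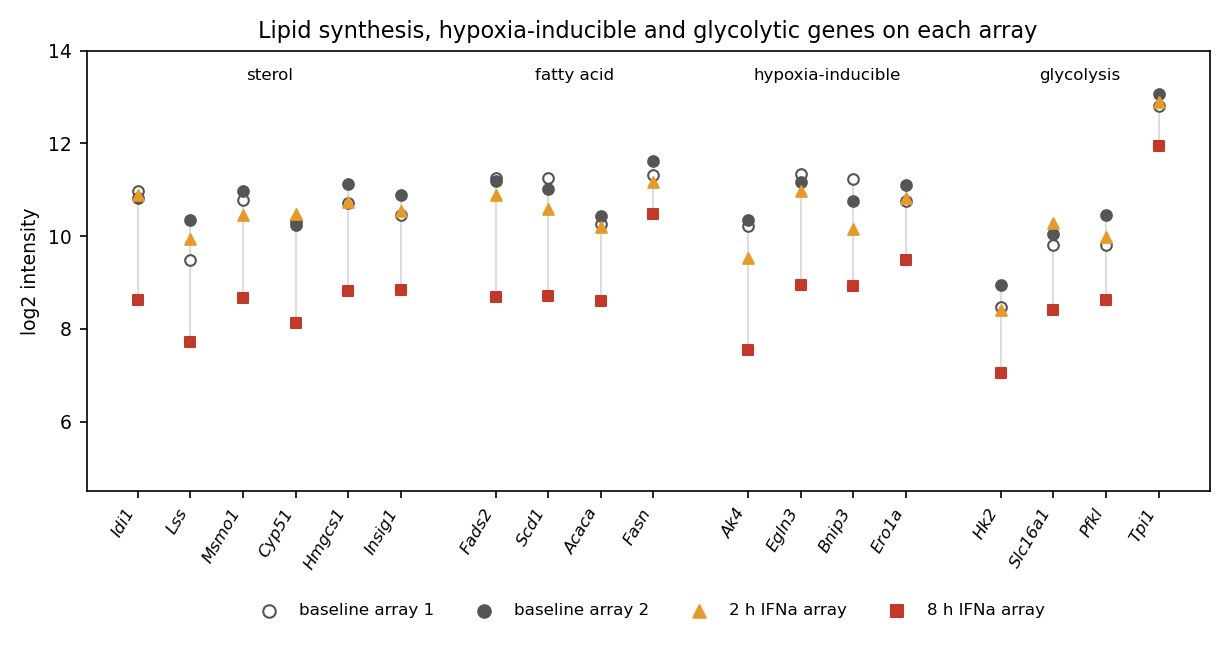
The log2 intensity of lipid synthesis, hypoxia-inducible and glycolytic genes is shown on each array, with circles for the baseline arrays, triangles for 2 h and squares for 8 h. For all 18 genes the 8 h square lies below both circles and below the 2 h triangle.

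Among interleukin 2, its receptor and the targets of its signal transducer STAT5, 5 of 15 fell and none rose, with a median of −0.57. Il2, the T cell growth cytokine, stood at 9.81 and 9.23 on the baseline arrays, 10.22 after 2 h and 7.29 after 8 h and fell by 2.23 (SE 0.27, adjusted p = 0.00508) on the log2 scale. It was also lower than at 2 h (difference −2.93, adjusted p = 0.00786). Socs2, a feedback inhibitor induced by STAT5, stood at 11.67 and 11.64 on the baseline arrays, 11.70 after 2 h and 9.48 after 8 h and fell by 2.18 (SE 0.20, adjusted p = 0.00159). Cish, another such inhibitor, stood at 10.79 and 11.41 on the baseline arrays, 11.17 after 2 h and 9.02 after 8 h and fell by 2.08 (SE 0.27, adjusted p = 0.00802). The 2 inhibitors thus fell by like amounts, with baseline arrays further apart for Cish. The cytokine Lif stood at 9.18 and 9.52 on the baseline arrays, 9.55 after 2 h and 7.26 after 8 h and fell by 2.09 (SE 0.22, adjusted p = 0.00321). Bcl2, a survival factor, stood at 12.25 and 12.27 on the baseline arrays, 12.01 after 2 h and 11.14 after 8 h and fell by 1.12 (SE 0.20, adjusted p = 0.0258). Il2ra, the high-affinity receptor chain, did not pass (difference −0.52, SE 0.20, adjusted p = 0.168). For Socs2 and Bcl2 the baseline arrays nearly coincided, and the 8 h array alone was more than 2-fold lower.

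Of 12 tested effector cytokines and cytotoxic molecules 3 fell, with a median of −0.36. Lymphotoxin Lta stood at 9.25 and 9.23 on the baseline arrays, 9.21 after 2 h and 7.50 after 8 h and fell by 1.74 (SE 0.20, adjusted p = 0.00451). Il4, the type 2 helper cytokine, stood at 9.17 and 9.17 on the baseline arrays, 9.22 after 2 h and 7.80 after 8 h and fell by 1.37 (SE 0.20, adjusted p = 0.0128). Tnf stood at 10.23 and 10.59 on the baseline arrays, 10.87 after 2 h and 9.11 after 8 h and fell by 1.30 (SE 0.23, adjusted p = 0.0233). Ifng, the type II interferon, lay between its baseline levels (difference −0.19, SE 0.24, adjusted p = 0.651). Among 22 helper lineage factors and cytokine receptors 2 fell, against 3.35% of all genes, and the median was −0.23. Bhlhe40, a transcription factor of inflammatory helper cells, stood at 8.49 and 8.96 on the baseline arrays, 9.87 after 2 h and 7.01 after 8 h and fell by 1.71 (SE 0.24, adjusted p = 0.0115). Il12rb2, a chain of the interleukin 12 receptor, stood at 10.71 and 10.65 on the baseline arrays, 11.39 after 2 h and 9.40 after 8 h and fell by 1.28 (SE 0.20, adjusted p = 0.0174). Tbx21, the type 1 helper factor, lay between the baseline arrays (difference 0.01, SE 0.20, adjusted p = 0.98).

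Immediate early factors, switched on within minutes of a signal, had a median difference of 1.06 at 2 h. At 8 h, of 27 tested, 4 fell and none rose against baseline, with a median of −0.31, and 17 of the 27 were called lower than at 2 h, against 10.8% of all genes. Nr4a3, an orphan receptor induced by antigen receptor signalling, stood at 9.89 and 9.86 on the baseline arrays, 11.53 after 2 h and 7.89 after 8 h and fell by 1.99 (SE 0.20, adjusted p = 0.00239) from baseline. Jun stood at 8.28 and 8.68 on the baseline arrays, 8.79 after 2 h and 7.10 after 8 h and fell by 1.38 (SE 0.23, adjusted p = 0.022). Atf3 stood at 8.61 and 9.03 on the baseline arrays, 10.08 after 2 h and 7.54 after 8 h and fell by 1.28 (SE 0.24, adjusted p = 0.0288). Egr2 stood at 9.26 and 9.45 on the baseline arrays, 11.00 after 2 h and 8.36 after 8 h and fell by 0.995 (SE 0.21, adjusted p = 0.0411). Among the 15 NF-kB genes limma called none against baseline, and 1 was lower at an unadjusted p under 0.05, where 19% of all genes were. Nfkbiz, a nuclear regulator of the family, had the largest difference (−0.53, SE 0.21, adjusted p = 0.168). Of 26 trafficking and quiescence genes, Cd69, an early activation marker that holds T cells in tissue, was the 1 called, against 3.35% of all genes called lower. It stood at 10.86 and 10.93 on the baseline arrays, 11.83 after 2 h and 9.95 after 8 h and fell by 0.95 (SE 0.20, adjusted p = 0.0423). In that list 6 genes were higher at an unadjusted p under 0.05, and 7 were called higher after quantile normalization. Its counterpart S1pr1, the egress receptor, stood at 10.52 and 10.71 on the baseline arrays, 11.21 after 2 h and 11.22 after 8 h (difference 0.61, SE 0.21, adjusted p = 0.132), and the quiescence factor Klf2 did not pass either (difference 0.40, SE 0.24, adjusted p = 0.319).

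Several growth genes were among the falls. Myc, the main driver of growth in activated T cells, stood at 11.88 and 12.05 on the baseline arrays, 11.94 after 2 h and 10.77 after 8 h and fell by 1.20 (SE 0.21, adjusted p = 0.0232). Of 12 genes of Myc and polyamine metabolism 3 fell, the others being Odc1 (difference −1.18, SE 0.20, adjusted p = 0.0227) and Srm (−1.26, SE 0.24, adjusted p = 0.0309), enzymes of polyamine synthesis. The median of the 12 was −0.09, or 0.08 after quantile normalization, and 3 lay above both baseline arrays and 6 below. With no filter on dim rows 0 of them were called lower. Of 26 tested ribosome biogenesis genes 10 fell and all 26 lay below both baseline arrays (55.9% of all genes did), with a median of −0.83. The nucleolar GTPase Gnl3 stood at 10.32 and 10.43 on the baseline arrays, 10.66 after 2 h and 8.82 after 8 h and fell by 1.55 (SE 0.20, adjusted p = 0.00802). Nop58, of the small nucleolar ribonucleoproteins, stood at 9.38 and 9.89 on the baseline arrays, 10.54 after 2 h and 8.17 after 8 h and fell by 1.46 (SE 0.25, adjusted p = 0.0227). Rrp1b (difference −1.54, SE 0.20, adjusted p = 0.00825), Polr1b, a subunit of RNA polymerase I (−1.44, SE 0.21, adjusted p = 0.0135), and the nucleolar chaperone Nolc1 (−1.09, SE 0.20, adjusted p = 0.0288) fell as well.

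Amino acid supply, in the list of the ATF4 programme, had 7 of 25 called lower, none higher and a median of −0.73. Asns, which makes asparagine, stood at 11.36 and 11.90 on the baseline arrays, 11.93 after 2 h and 10.003 after 8 h and fell by 1.63 (SE 0.26, adjusted p = 0.0174). Slc7a5, the carrier of large neutral amino acids, stood at 11.89 and 12.24 on the baseline arrays, 12.37 after 2 h and 10.48 after 8 h and fell by 1.59 (SE 0.23, adjusted p = 0.0113). Aldh18a1, of proline synthesis, fell by 1.36 (SE 0.27, adjusted p = 0.0333). The transfer RNA synthetases Nars (difference −1.14, SE 0.20, adjusted p = 0.0258) and Cars (−1.14, SE 0.21, adjusted p = 0.0284) fell as well. Of 24 chaperones 5 fell, with a median of −0.54, among them mitochondrial Hspa9 (difference −1.14, SE 0.20, adjusted p = 0.0258) and Hspd1 (−0.97, SE 0.20, adjusted p = 0.0412), the disulfide isomerase Pdia6 (−0.97, SE 0.21, adjusted p = 0.0469) and the endoplasmic reticulum cofactor Sdf2l1 (−1.20, SE 0.22, adjusted p = 0.0264). The stress factor Xbp1 fell in the same list (−1.12, SE 0.21, adjusted p = 0.0308).

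The 20 largest falls also held genes of none of these lists. Prelid2, of a family that carries phospholipid between mitochondrial membranes, stood at 9.04 and 8.80 on the baseline arrays, 8.56 after 2 h and 6.51 after 8 h and fell by 2.41 (SE 0.21, adjusted p = 0.00132). Naf1, which assembles box H/ACA small nucleolar ribonucleoproteins, stood at 9.62 and 9.48 on the baseline arrays, 9.65 after 2 h and 7.38 after 8 h and fell by 2.17 (SE 0.21, adjusted p = 0.00166). Snora33, a small nucleolar RNA of that class, stood at 10.14 and 9.52 on the baseline arrays, 9.24 after 2 h and 7.97 after 8 h and fell by 1.86 (SE 0.27, adjusted p = 0.0127). Itih5, of the inter-alpha-trypsin inhibitor heavy chains, stood at 9.93 and 10.20 on the baseline arrays, 10.10 after 2 h and 8.09 after 8 h and fell by 1.98 (SE 0.22, adjusted p = 0.00334). On each of these genes the 8 h array was the lowest of the 4, and the baseline arrays of Snora33 lay furthest apart.

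Lists of division and T cell identity held few calls. Among 23 mitosis genes none was called by limma, none reached an unadjusted p under 0.05, and the median was 0.02, which turned to −0.06 with centred arrays. Mki67, a marker of cycling cells, stood at 12.79 and 12.76 on the baseline arrays, 12.77 after 2 h and 12.89 after 8 h (difference 0.11, SE 0.20, adjusted p = 0.759). Of 28 DNA replication genes none was called (limma), 3 were lower at an unadjusted p under 0.05, a share below the 19% of all genes, and the median was −0.24. Gins1, of the replicative helicase, had the largest difference (−0.85, SE 0.23, adjusted p = 0.0791). Cdk6, the partner of the D cyclins, stood at 11.49 and 11.80 on the baseline arrays, 12.09 after 2 h and 10.17 after 8 h and fell by 1.47 (SE 0.22, adjusted p = 0.0136). It was the only member called in its list of D cyclins, CDK inhibitors and p53 targets. Of the 13 tested there, 7 lay above both baseline arrays and 5 below, with a median of 0.11. Among 20 genes of the T cell receptor complex and its proximal signalling none was called (limma) and 1 was higher at an unadjusted p under 0.05. The median was 0.00, and the kinase Prkcq had the largest difference (0.53, SE 0.21, adjusted p = 0.172). Cd3e stood at 12.77 and 12.91 on the baseline arrays, 12.80 after 2 h and 12.93 after 8 h, and Cd4 stood at 11.66 and 12.43 on the baseline arrays, 12.23 after 2 h and 12.36 after 8 h. The 8 h level of Cd4 lay between its 2 baseline values. Tnf and Lta were counted above with the effector cytokines, and Bcl2 with the STAT5 targets, and each of them fell. The lists of checkpoint receptors and costimulators (20 tested), other TNF superfamily genes (18), other BCL2 family genes (12) and the respiratory chain (26) held no call by limma. Their medians were −0.05, −0.05, −0.10 and −0.30. At an unadjusted p under 0.05 they held 3, 2, 0 and 0 higher genes and 4, 4, 1 and 2 lower genes, against 5.63% and 19% of all genes. The genes with the largest differences in them were Cd200 (−0.85, SE 0.20, adjusted p = 0.056), Tnfrsf10b (−0.81, SE 0.20, adjusted p = 0.0622), Bcl2l1 (−0.89, SE 0.24, adjusted p = 0.0814) and Ndufs1 (−0.64, SE 0.20, adjusted p = 0.112). In the tricarboxylic acid cycle 1 of 17, Idh3a, fell (−1.03, SE 0.22, adjusted p = 0.0411), against 3.35% of all genes, with a median of −0.41.

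**Figure D4:**
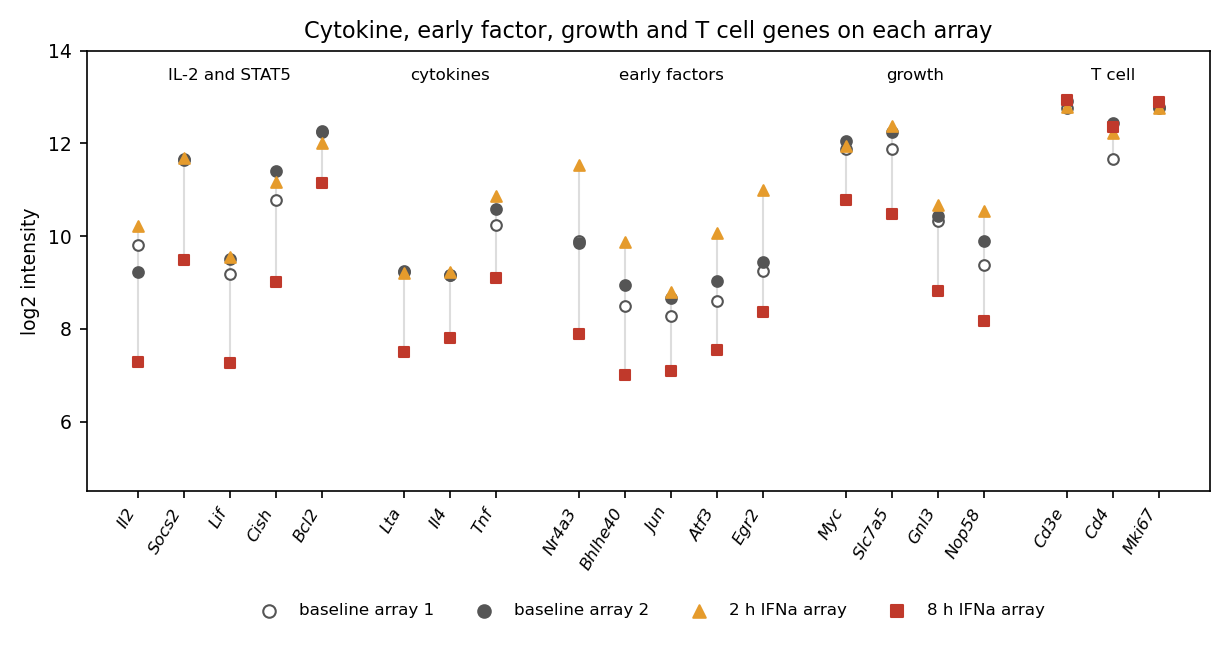
The log2 intensity of cytokine, early factor, growth and T cell genes is shown on each array, with circles for baseline, triangles for 2 h and squares for 8 h. The 8 h square is the lowest point for the 17 genes of the first 4 groups, and for Cd4 it lies between the baseline circles of 11.66 and 12.43.

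**Figure D5:**
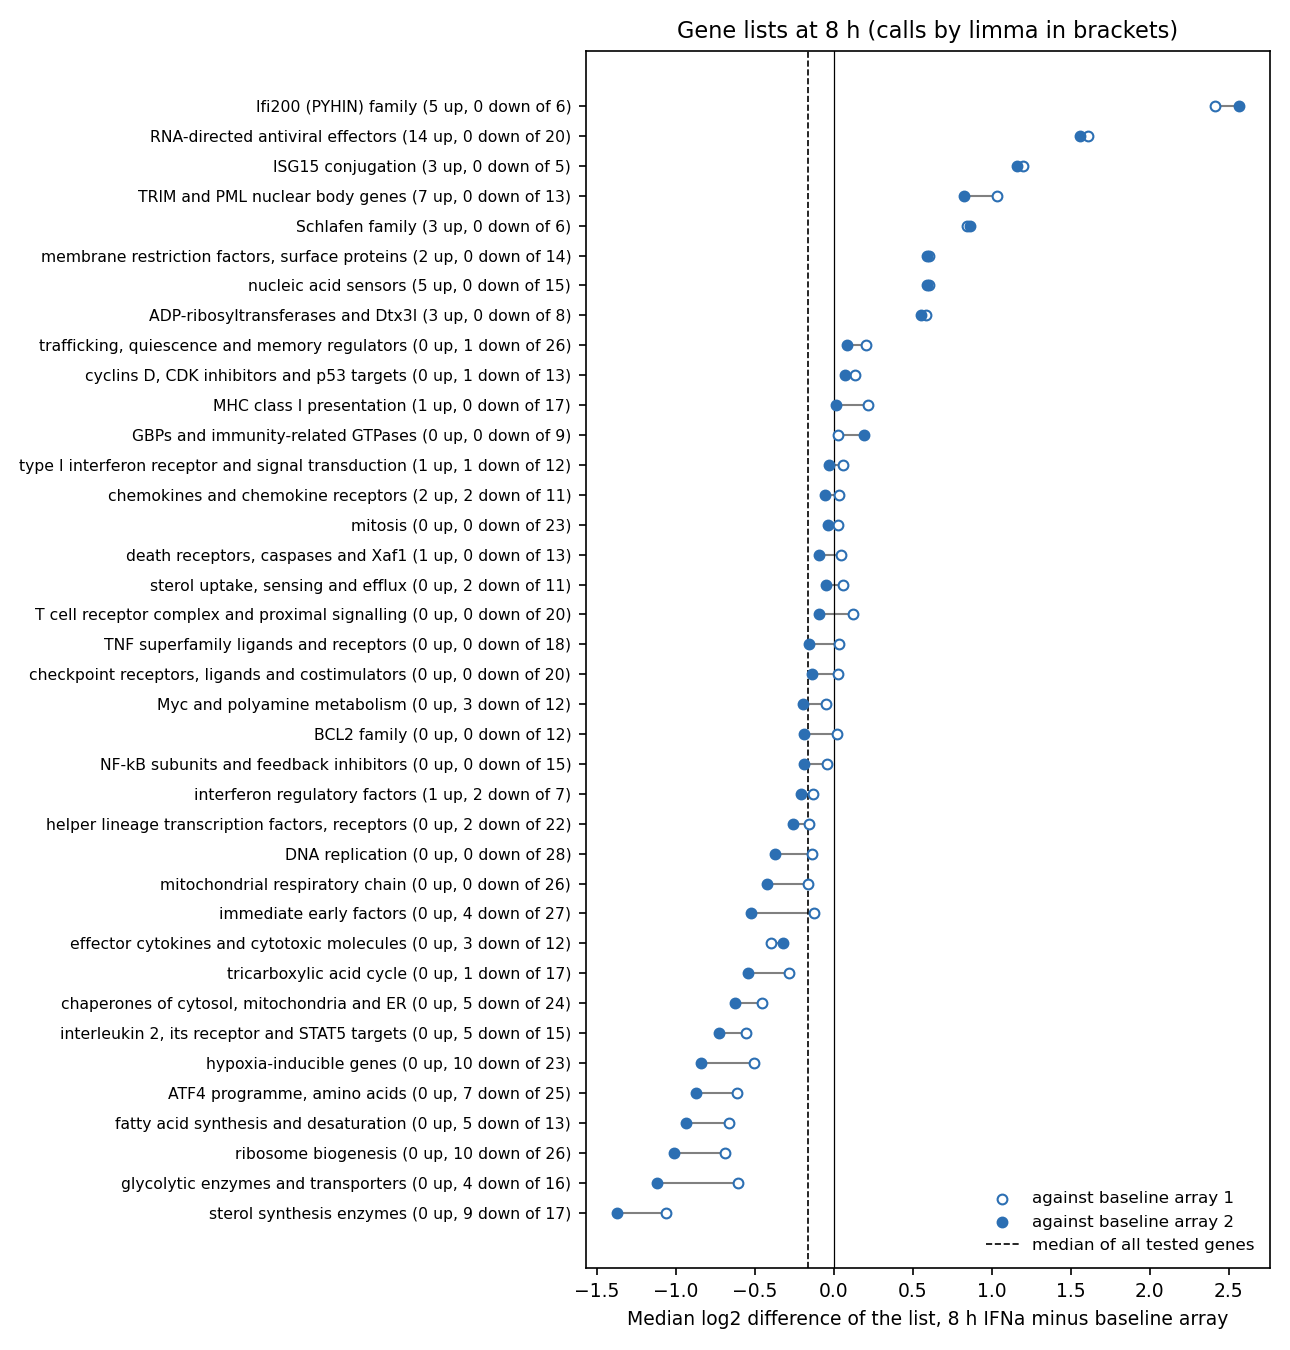
The median log2 difference of the 38 gene lists at 8 h is shown against each baseline array, joined by a line, with the number of members called by limma. Lists run from 2.49 for the Ifi200 family to −1.09 for sterol synthesis, and the dashed line marks the median of all tested genes at −0.16.

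Across all 140 genes chosen by the naming rule, 105 were called. The direction of none of these turned after quantile normalization, with centred arrays or with the mean of a gene's rows, where the gene was tested. Called differences were at least 0.89 upward or at most −0.89 downward, against medians over all genes of 0.00 and −0.24 under the 2 scalings. That makes the unchanged directions a weak check. No direction could turn with no filter, the filter at the 60th percentile or 3 arrays only, which leave a gene's difference unchanged. Nor could one turn without either baseline replicate, because called genes lay outside both baseline arrays. Calls near the threshold were less stable. With no filter on dim rows 35 of the 105 were not called (9 higher and 26 lower), each with an adjusted p of at least 0.0227 above, among them Irf9, Socs1, Ddx58, Myc, Bcl2, Tnf and Cd69. Counts of lists moved more with the scaling. After quantile normalization, with centred arrays, with quantile normalization at the deposited spread, and with no filter on dim rows, in that order, the lower calls of ribosome biogenesis were 16, 18, 4 and 3 in place of 10. Those of the ATF4 list were 13, 11, 3 and 2 in place of 7, those of chaperones 8, 7, 2 and 0 in place of 5, and those of glycolysis 11, 11, 2 and 2 in place of 4. Sterol synthesis had 12, 12, 9 and 7 in place of 9, interleukin 2 and STAT5 targets 6, 6, 5 and 4 in place of 5, and the RNA-directed antiviral list 15, 14, 15 and 11 higher calls in place of 14. List medians close to 0 changed sign with the scaling. After quantile normalization those of interferon regulatory factors, chemokines, checkpoint receptors, TNF superfamily, NF-kB, BCL2 family and Myc genes did so, and with centred arrays those of the receptor and transducers, sterol uptake, chemokines, the T cell receptor complex, death genes and mitosis.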

How the data were processed

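RNA of 4 samples was measured on 1-colour Affymetrix mouse gene arrays. The authors deposited linear intensity values per transcript cluster, which the submitters' processing notes credit to RMA and Affymetrix Power Tools. Versions, the genome build and which arrays were processed together are not given in the sources used here. Their medians lay at 195 and 183 (baseline), 176 (2 h) and 199 (8 h). Precision is limited by the small number of arrays.

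Of 24922 rows, 21425 had 1 gene symbol, 1399 several and 2098 none in GEO's platform annotation. The log2 of the deposited intensity was taken with no pseudocount, and a gene with several rows was represented by the row of highest mean. Of 19752 genes, 10699 lay above the array median on at least 1 array and were tested. Of the 70 genes called higher, 68 passed this filter through another array as well, and 91 of the 358 called lower lay at or below the median at 8 h. limma 3.58.1 (R 4.3.3) was fitted to 3 groups over all 4 arrays, with 1 residual and 7.46 prior degrees of freedom, two-sided, with Benjamini-Hochberg adjustment over all tested genes. SE is the model's standard error of a difference in log2. The fit was tested on simulated data with known changes. Tables were handled with pandas 2.3.3 and figures drawn with matplotlib 3.10.9.

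Named genes were the called genes outside both baseline arrays with the 20 greatest rises and 20 greatest falls, up to 5 called members of each list (the 2 largest values where none was called), and a set of fixed genes. Members and lists were chosen with earlier results of these data known. Some genes are not reported here. RefSeq sequences and gene order are those of GRCm38.p6. Alternatives changed the scaling between arrays, the filter on dim rows, the row that stands for a gene, the arrays in the fit, the variance prior, the thresholds and the baseline arrays used.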

Additional observations from a re-analysis of the deposited data

Results flagged for a closer look

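Rows outside the comparison also moved at 8 h. Among rows that list several gene symbols, 2 were at least 2-fold higher than the baseline mean and above both baseline arrays, and 7 were at least 2-fold lower and below both. These came from 968 such rows above the array median on at least 1 array. Among rows with no gene symbol listed, 15 were higher and 20 lower by the same measure, from 1058 rows above the median. They were singled out because no gene could be named for them and the comparison does not use them. No group held enough arrays for a check of single outlying arrays.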

How the results depend on the processing

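The count of genes higher at 8 h than at baseline was 70, and became 665 after quantile normalization, 42 with no filter on dim rows and 143 at an adjusted p under 0.1 (limma). The count lower was 358, and became 901, 101 and 888 under the same settings, 724 with centred arrays and 203 with the filter at the 60th percentile. Quantile normalization included all 70 and all 358, while the setting with no filter shared 41 and 100 of them. The 61 genes at least 2-fold higher became 101 after quantile normalization, 314 at 1.5-fold, and 70 to 71 without 1 baseline replicate. The 278 lower became 1467 at 1.5-fold and 240 to 457 without 1 baseline replicate, the 457 without replicate 1. The 1311 genes called between 8 h and 2 h became 2308 after quantile normalization, 2387 with centred arrays and 415 with no filter. The cause of these moves was not tested. Of 105 called named genes, 13 lost the call at the 60th percentile and 6 with 3 arrays only, and none did after quantile normalization or centring. No paired analysis was possible because the groups share only replicate number 1. With 1 array at 8 h, no setting measures the spread of treated cells, and leaving it out is not possible.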

Other observations

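Further families of the machinery of translation and nucleotide supply were chosen after their values were seen. They overlap the lists above. Among their called genes, Cars, Gars and Nars are also on the ATF4 list, and Nop16, Nop58 and Rrp1b on the ribosome biogenesis list. Of 19 cytosolic aminoacyl-tRNA synthetases, which charge transfer RNAs, 8 fell and 18 lay below both baseline arrays, against 3.35% and 55.9% of all genes. Their median log2 difference was −0.79 (all tested genes −0.16). Tars, Yars and Eprs were the lowest. Of 19 enzymes of purine and pyrimidine synthesis 7 fell, led by Ctps, with a median of −0.72. Of 36 rRNA processing factors named Utp, Rrp, Nol, Nop or Noc, 8 fell, with a median of −0.66. Of 45 small nucleolar RNA genes, which guide rRNA modification, 8 fell, with a median of −0.34 that became −0.13 after quantile normalization. Mitochondrial ribosomal proteins lay below both baseline arrays for 67 of 77 genes, where 55.9% of all genes did, with a median of −0.47. Of the 77 only 3 were called lower, near the 3.35% of all genes. Cytosolic ribosomal proteins had 1 of 57 called, Rpl12, and a median of −0.04, which was 0.02 against baseline array 1 and −0.13 against baseline array 2. The difference between families was not tested.

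Of the 70 genes that rose, 22 were on none of the gene lists. Rnf213, a giant ubiquitin ligase, rose by 1.92 (SE 0.21, adjusted p = 0.00328). Samd9l, a restrainer of translation, rose by 1.62 (SE 0.20, adjusted p = 0.00633). Ifi27l2a, an interferon-induced mitochondrial protein, rose by 1.57 (SE 0.24, adjusted p = 0.0153), and Helz2, a nuclear receptor coactivator, by 1.27 (SE 0.22, adjusted p = 0.0248). Of the 358 genes that fell, 281 were on no list. Tfrc, the transferrin receptor that takes up iron, fell by 1.36 (SE 0.22, adjusted p = 0.0181). Epas1, which encodes the HIF subunit HIF-2alpha, fell by 1.26 (SE 0.20, adjusted p = 0.0181), and the fatty acid carrier Fabp5 by 1.53 (SE 0.24, adjusted p = 0.0181). These genes were chosen after their values were seen (limma, differences in log2).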
